A study of Mus musculus with 4 samples.

Results

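Transcripts of the proteasome, the protease complex that degrades ubiquitin-tagged proteins, were measured in alveolar macrophages of osteopontin knock-out (OPNKO) and wild-type (WT) mice. Members were all genes whose symbol begins with Psma, Psmb, Psmc, Psmd, Psme, Psmf or Psmg and a digit, apart from the interferon-induced subunits Psmb8, Psmb9 and Psmb10. This rule gave 47 of the 16755 genes in the deposited table. It used symbols alone and no measured value. The members were 14 subunits of the 20S core (7 alpha and 7 beta), 17 of the 19S regulator, 5 genes of alternative activators, 1 inhibitor, 7 assembly factors, 2 tissue-restricted core variants and Psmc3ip, which encodes a meiotic recombination factor and shares only the symbol. They lie on 16 chromosomes, with 3 (Psmc2, Psmd9 and Psmg3) on chromosome 5, which also carries Spp1.

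Both groups were C57BL6 mice whose samples carry a bleomycin tag, and the deposited columns name day 14; bleomycin injures the lung and leads to scarring. A protocol field of the same samples states that no treatment was given, so the exposure is not settled by the labels. The macrophages were sorted by surface markers and sequenced in bulk, with 2 OPNKO and 2 WT libraries. Groups follow the sample titles, since title and genotype tag disagree for 2 of the 4 samples. The sources used here give neither age, nor pooling of animals, nor the extent of the Spp1 deletion. Whether each replicate was a mouse of its own is not stated either; p-values therefore reflect variation among these libraries, which may be technical.

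The 20S core is a barrel of stacked rings. Its alpha rings gate the entry, and its beta rings hold the proteolytic sites. The 19S regulator caps the barrel: a lid removes ubiquitin, and a base with an ATPase ring unfolds the substrate and feeds it in. Dedicated chaperones build both parts. Subunit genes are transcribed in concert in mammalian cells, in part by the transcription factor NRF1 (Nfe2l1). Macrophages rely on the complex for protein turnover and for making the peptides shown on MHC class I.

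The libraries held 35793800 to 44759630 recovered reads. Spp1, which encodes osteopontin, had normalized read counts of 4106 and 3847 in the OPNKO libraries, against 545719 and 606517 in the WT libraries, and thus followed the titles. All 10 resident alveolar macrophage markers examined were detected, with summed values of 557330 and 671167 in OPNKO and 889652 and 892519 in WT. These sums are dominated by Chil3 (311109 and 411474 in OPNKO, 634850 and 643790 in WT, limma adjusted p = 0.0528). Without it, a split made after seeing the values, they were 246220 and 259693 in OPNKO and 254801 and 248729 in WT, and the median log2 fold change of all 10 was 0.13. At an adjusted p under 0.05 (limma), past which 4.32% of all tested genes lay, 3 of the 10 rose and 2 fell. Markers of other cells moved with genotype. T and NK cell markers (5 of 9 rose) summed to 5427 and 8802 in OPNKO and to 2127 and 2652 in WT. Early thymocyte markers (3 of 5 rose) summed to 5396 and 7740 in OPNKO and to 2466 and 2385 in WT. The WT sums are dominated by Cd1d1, which hardly differed (1639 and 1894 in OPNKO, 1814 and 1634 in WT). The median log2 fold change of this list was 2.52. B and plasma cell markers (3 of 7 fell) summed to 3452 and 3438 in OPNKO and to 21721 and 28202 in WT. Fibroblast markers (0 of 5 called) summed to 702 and 429 in OPNKO and to 882 and 5095 in WT, so WT replicate 2 stood apart. Among markers of dividing cells 1 of 6 fell, with sums of 19350 and 22533 in OPNKO and of 22763 and 23634 in WT. The other lists were monocytes (2 of 6 fell), neutrophils (1 of 4 fell), epithelium and endothelium (0 of 5 and 0 of 3 called). WT replicate 2 also had the highest sum for endothelium (574 and 510 in OPNKO, 441 and 1485 in WT) and epithelium (1283 and 1441 in OPNKO, 1178 and 2338 in WT). The same held for neutrophils (2652 and 2511 in OPNKO, 2293 and 3655 in WT). It did not hold for the monocyte sum, which is dominated by Fn1 (428601 and 368680 in OPNKO, 403744 and 393762 in WT). Each of the other monocyte markers (Ccr2, Ly6c2, Vcan, F13a1 and Plac8) was highest in WT replicate 2. No marker was at 0 in all libraries. The part of these cells in the proteasome values below was not tested. In bulk RNA, fewer cells of a type and less RNA per cell cannot be told apart.

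Proteasome subunit transcripts had slightly lower values in OPNKO than in WT macrophages across the core and the regulator, and 0 of the 47 members passed the test. All 31 subunits of the 20S core and 19S regulator had a negative log2 fold change, between -0.32 and -0.08, with a median of -0.17, which is 89.1% of the WT level. In 28 of these 31 both OPNKO libraries lay below both WT libraries; the exceptions were Psmb4, Psmb6 and Psmd6. The same held for 25.0% of all tested genes, the share beside which the counts of each class below stand. Over all 47 members the count was 34, the number with a negative fold change was 43, and the median was -0.16, beside a median of 0.00 over all tested genes. Together the 31 subunits made up 0.254% and 0.251% of all values in OPNKO, against 0.285% and 0.291% in WT.

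Fold changes are OPNKO over WT on the log2(value + 1) scale from limma, which was fitted to the 16431 genes whose mean value reached 1, with Benjamini-Hochberg adjustment over all of them. All 47 members passed this filter. At an adjusted p of 0.05 limma called 4.32% of all tested genes, 1.98% lower and 2.33% higher, and 0 of 47 members in either direction. At an adjusted p of 0.1 it called 4 members lower, beside 3.87% of all tested genes. At an unadjusted p under 0.05 the counts were 19 lower and 0 higher, beside 9.54% and 11.6% of all tested genes. On recovered reads, edgeR's quasi-likelihood test called 0 of the 46 members it kept lower and 0 higher, beside 2.37% and 2.59% of its genes. DESeq2 called 1 member lower, Psma2, and 0 higher, beside 3.09% and 3.65% of its genes. By the adjusted p of the authors' deposited table, 0 members were lower and 0 higher at the same threshold, beside 1.61% and 2.73% of its genes. A negative fold change larger than the gap between replicates in both genotypes was found for 23 of the 31 subunits and 28 of the 47 members, beside 18.6% of all tested genes. The 95% intervals of 16 of the 31 subunits lay below 0, and those of 30 of the 31 excluded a log2 fold change beyond -0.58, a 1.5-fold lower level, with Psmb4 as the exception. Reads per library ran from 660 to 11995 for these genes, and the counting error at 660 reads, which leaves out all other error, is 3.89%.

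Abundant genes as a whole had no such shift. Among tested genes whose mean value reached 1000, where 36 of the members lie, the median log2 fold change was 0.03. Both OPNKO libraries were below both WT libraries for 24.3% of them and above for 36.5%, and 42.6% had a negative fold change. For the 36 members the median was -0.17, all 36 fold changes were negative, and 31 were below and 0 above in both libraries. A negative fold change larger than both replicate gaps was found for 27 of the 36, beside 18.8%. Fitted to these genes alone, limma called 0 of the 36 lower and 0 higher, beside 1.90% and 3.83%. This level of 1000 was chosen after the values were seen.

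**Figure D1:**
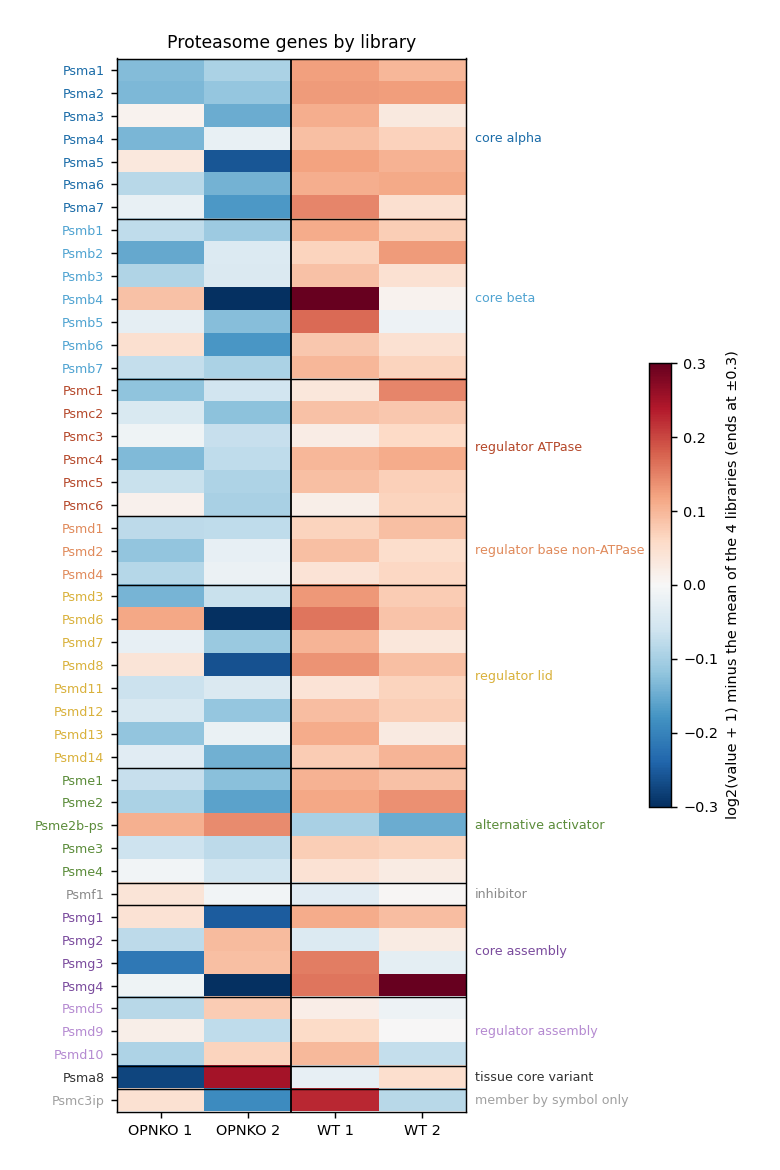
Value of each proteasome gene in each library as log2(value + 1) minus its mean over the 4 libraries (colour, blue lower and red higher, ending at ±0.3), with OPNKO libraries left of WT libraries and genes grouped by class. The core and regulator rows are blue or pale in OPNKO and red or pale in WT, except OPNKO replicate 1 of Psmb4 and Psmd6, which is red; assembly factors show no common pattern, and Psmb11 is not drawn because it was at 0 in WT.

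The alpha rings of the core had the lowest median of the subunit classes, at -0.22, and in all 7 alpha genes both OPNKO libraries lay below both WT libraries. Psma2 had values of 3711 and 3762 in the OPNKO libraries, against 4454 and 4446 in the WT libraries. The replicates of each genotype nearly coincided and the groups were well apart. The gene lies on chromosome 13 from 14613240 to 14674236 (GRCm38, GENCODE M21). The OPNKO level was 84.0% of the WT level, a log2 fold change of -0.25 ± 0.06 (standard error), and it had the smallest adjusted p among the members (limma, 0.0651). It passed by DESeq2 (adjusted p = 0.0371) and with upper-quartile scaling (limma adjusted p = 0.0399), which called 2 members lower and 0 higher, beside 2.73% and 2.27% of all tested genes. Psma1 had 4541 and 4653 in OPNKO and 5409 and 5322 in WT, or -0.22 in log2 fold change (limma adjusted p = 0.0874). Psma6 also had -0.22 (limma adjusted p = 0.0892; 0.0483 with upper-quartile scaling). The least shifted alpha gene was Psma3, with 2293 and 2053 in OPNKO and 2457 and 2325 in WT (-0.14, limma adjusted p = 0.364). Its groups did not overlap, but the higher OPNKO and the lower WT library lay closer together than the replicates of either genotype. Psma4, Psma5 and Psma7 lay between, at -0.16, -0.22 and -0.20.

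Among the 7 beta genes the median was -0.17, and in 5 of them both OPNKO libraries were below both WT libraries. Psmb5, Psmb6 and Psmb7 encode the subunits with the chymotrypsin-like, caspase-like and trypsin-like sites. Psmb7 had 3578 and 3520 in OPNKO and 4025 and 3940 in WT (-0.17, limma adjusted p = 0.177). Psmb5 had 880 and 822 in OPNKO and 1010 and 887 in WT (-0.15, limma adjusted p = 0.419). Its groups nearly met, since the higher OPNKO and the lower WT library differed by less than either pair of replicates. Psmb6 had 4414 and 3782 in OPNKO and 4518 and 4409 in WT (-0.13, limma adjusted p = 0.431), and its groups overlapped. The structural subunit gene Psmb4 had the lowest fold change of the core, -0.32, but also the widest spread. Its values were 3180 and 2262 in OPNKO and 3699 and 3018 in WT, so that replicate 2 was the lower library in both genotypes and the groups overlapped (standard error 0.16, limma adjusted p = 0.320). Without OPNKO replicate 2 its log2 fold change was -0.07. Psmb1, Psmb2 and Psmb3, which are structural as well, had -0.19, -0.19 and -0.13.

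Promoter windows from RefSeq (build GRCm38.p6), 250 bases before to 50 after the annotated start, were found for 39 of the 47 members. They were searched on both strands for TGACNNNGC, the core of the antioxidant response element that NRF1 binds, and for CCAAT, the box bound by NF-Y. Matches that overlap were each counted. TGACNNNGC was present for 6 of the 39 members (15.4%), beside 14.0% of all 27025 genes with a window. CCAAT was present for 14 of the 39 (35.9%), beside 41.1% of all genes. By class, CCAAT was in 5 of 7 alpha genes and TGACNNNGC in 0 of 7, while TGACNNNGC was in 2 of the 4 beta genes with a window, Psmb5 and Psmb6. A gene with several windows was counted when any of them held the motif. For Psma6 and Psmc2, CCAAT was in the upstream window and absent from the downstream window. The alpha genes Psma4 and Psma5, with log2 fold changes of -0.16 and -0.22, had neither motif. The assembly factors Psmd9 and Psmd10, at -0.06 and -0.03, had TGACNNNGC and CCAAT, respectively. Whether motifs and fold changes go together was not tested. A match describes letters and not binding. The 250 bases before the start are shown for the alpha genes Psma1 and Psma2, for the catalytic genes Psmb5 and Psmb6, and for the assembly factor Psmd5, which had a fold change near 0. Capitals mark CCAAT or its reverse ATTGG in the alpha genes and TGACNNNGC in the catalytic genes; the Psmd5 stretch holds neither motif.
Psma1 (chr7:114276117-114276366, minus strand): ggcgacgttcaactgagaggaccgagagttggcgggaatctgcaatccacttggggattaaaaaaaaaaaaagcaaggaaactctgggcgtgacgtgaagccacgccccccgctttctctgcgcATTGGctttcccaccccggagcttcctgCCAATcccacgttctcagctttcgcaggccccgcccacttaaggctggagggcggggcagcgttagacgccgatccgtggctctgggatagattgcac
Psma2 (chr13:14612992-14613241, plus strand): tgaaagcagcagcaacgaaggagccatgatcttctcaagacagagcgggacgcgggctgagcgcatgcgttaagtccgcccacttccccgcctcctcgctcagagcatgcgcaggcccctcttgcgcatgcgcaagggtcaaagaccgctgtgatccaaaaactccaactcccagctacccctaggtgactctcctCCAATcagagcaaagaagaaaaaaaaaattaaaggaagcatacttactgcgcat
Psmb5 (chr14:54617996-54618245, minus strand): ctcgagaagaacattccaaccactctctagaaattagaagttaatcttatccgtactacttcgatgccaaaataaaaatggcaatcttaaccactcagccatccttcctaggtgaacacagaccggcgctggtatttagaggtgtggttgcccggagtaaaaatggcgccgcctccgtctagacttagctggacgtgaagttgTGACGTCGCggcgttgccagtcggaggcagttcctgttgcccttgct
Psmb6 (chr11:70525107-70525356, plus strand): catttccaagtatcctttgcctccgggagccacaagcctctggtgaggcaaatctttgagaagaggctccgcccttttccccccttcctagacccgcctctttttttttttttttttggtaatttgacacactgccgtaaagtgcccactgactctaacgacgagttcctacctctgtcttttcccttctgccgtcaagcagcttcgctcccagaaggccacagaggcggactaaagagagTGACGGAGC
Psmd5 (chr2:34870963-34871212, minus strand): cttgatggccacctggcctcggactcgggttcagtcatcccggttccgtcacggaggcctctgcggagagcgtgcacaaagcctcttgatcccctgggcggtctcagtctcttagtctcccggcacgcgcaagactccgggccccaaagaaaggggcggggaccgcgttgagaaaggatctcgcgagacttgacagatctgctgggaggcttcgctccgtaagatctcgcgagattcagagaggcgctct

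The 19S regulator, which recognizes and unfolds the substrate, had a median log2 fold change of -0.16. Of its 17 genes, 16 had both OPNKO libraries below both WT libraries. In the ATPase ring this held for all 6 genes (median -0.17). Psmc4 had 2989 and 3107 in OPNKO and 3510 and 3541 in WT (-0.21, limma adjusted p = 0.112), with the genotypes clearly apart. Psmc3 had 4913 and 4721 in OPNKO and 5032 and 5168 in WT (-0.08, limma adjusted p = 0.490), where the gap between the groups was smaller than that between replicates. Psmc1, Psmc2 and Psmc5 ranged from -0.18 to -0.16, and Psmc6 had -0.08.

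The base genes without ATPase activity encode the scaffold subunits Psmd1 and Psmd2 and the ubiquitin receptor Psmd4. Psmd1 had 5508 and 5513 in OPNKO and 6088 and 6188 in WT (-0.16, limma adjusted p = 0.189). Psmd2 had the highest values of all members, 10410 and 11096 in OPNKO and 12020 and 11706 in WT (-0.14, limma adjusted p = 0.263). Psmd4 had 3652 and 3828 in OPNKO and 3991 and 4050 in WT (-0.10, limma adjusted p = 0.384). All 3 kept the genotypes apart, with Psmd1 showing the tightest OPNKO replicates.

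In the lid, 7 of 8 genes were below in both OPNKO libraries, with a median of -0.17. Psmd14, the subunit that cuts ubiquitin from substrates, had -0.18 (limma adjusted p = 0.188). Psmd6, a structural lid subunit, had 2968 and 2133 in OPNKO and 3065 and 2906 in WT (-0.25, limma adjusted p = 0.368). OPNKO replicate 2 alone was low, and the groups overlapped. Without OPNKO replicate 1 it was called lower (-0.48, limma adjusted p = 0.0408), the 1 member so called; 0 were higher, and 2.02% and 1.30% of all tested genes were lower and higher in that fit. Without OPNKO replicate 2 its log2 fold change was -0.01. Psmd11 had 3665 and 3714 in OPNKO and 3938 and 4013 in WT (-0.11, limma adjusted p = 0.356), a small difference with close replicates. The other lid genes ranged from -0.22 (Psmd8) to -0.14 (Psmd7).

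OPNKO replicate 2 was the lowest of the 4 libraries for 18 of the 31 core and regulator genes and OPNKO replicate 1 for 13; a WT library was lowest for 0. The gap between the OPNKO replicates was widest for Psmb4 (-0.49, replicate 2 minus replicate 1), Psmd6 (-0.48), Psmd8 (-0.30) and Psma5 (-0.29). Psmd8 had 6329 and 5144 in OPNKO and 6769 and 6559 in WT, and Psma5 had 1401 and 1148 in OPNKO and 1491 and 1473 in WT. For these 4 genes the replicates of the knock-out differed by more than the genotypes did, and without OPNKO replicate 2 their log2 fold changes were -0.07, -0.01, -0.07 and -0.08. Exons of Psmb7, Psmc3, Psmd1, Psmd13 and Psme1 overlap those of Nek6, Slc39a13, Htr2b, Sirt3 and Emc9 on the opposite strand, by 0.634% (Psme1) to 11.8% (Psmb7) of their bases, and reads there may belong to either gene. Over the 31 genes the median signed gap, replicate 2 minus replicate 1, was -0.03 in OPNKO and -0.02 in WT. Gaps of opposite sign offset each other in this median, with 18 of the 31 negative in OPNKO and 21 in WT. It therefore does not give the typical size of a gap.

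**Figure D2:**
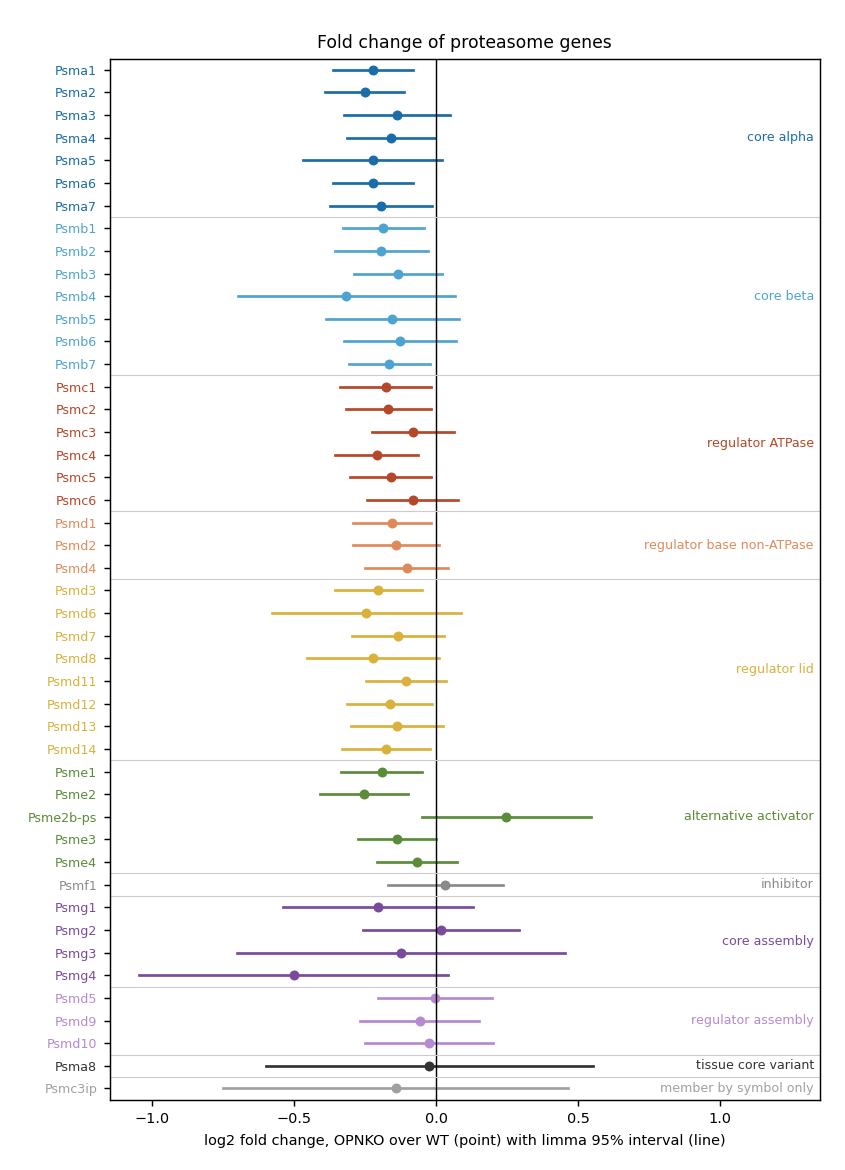
Log2 fold change of each proteasome gene, OPNKO over WT (points, coloured by class), with its limma 95% interval (lines). Points of all core and regulator genes lie between -0.32 and -0.08, and those of Psme2b-ps, Psmf1 and Psmg2 lie above 0; Psmb11 is not drawn because it was at 0 in WT.

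Alternative activators open the core without the 19S regulator. Psme1 and Psme2 encode the interferon-induced PA28 subunits, which lie side by side on chromosome 14. Psme2 had 2236 and 2137 in OPNKO and 2588 and 2625 in WT (-0.25, limma adjusted p = 0.0828). Psme1 had 4171 and 4013 in OPNKO and 4702 and 4652 in WT (-0.19, limma adjusted p = 0.130). In both the genotypes were separate and the replicates close. The nuclear activator gene Psme3 had -0.14 (limma adjusted p = 0.228), and Psme4, which encodes PA200, had -0.07 (limma adjusted p = 0.568). Psme2b-ps, a copy of Psme2 on chromosome 11 that GENCODE M21 lists as Psme2b, ran the other way. It had 341 and 350 in OPNKO, against 296 and 286 in WT (0.25, limma adjusted p = 0.317). Reads can be split between near-identical copies, so the values of Psme2b-ps and Psme2 are uncertain. Psmf1, the inhibitor PI31, had 826 and 800 in OPNKO and 785 and 806 in WT, with overlapping groups (0.03, limma adjusted p = 0.874; -0.01 with upper-quartile scaling).

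The assembly factors had a median log2 fold change of -0.06, and 2 of the 7, Psmg1 and Psmg4, were below in both OPNKO libraries, a share near the 25.0% of all tested genes. The chaperones of the 19S base, Psmd5, Psmd9 and Psmd10, had log2 fold changes between -0.06 and -0.01, and in 0 of the 3 were the groups apart. Psmd5 had 1193 and 1332 in OPNKO and 1280 and 1250 in WT, a log2 fold change of -0.01 with a 95% interval from -0.20 to 0.19 (limma adjusted p = 0.979). Psmd10 (gankyrin) had -0.03, with an interval from -0.25 to 0.20, and Psmd9 had 829 and 777 in OPNKO and 852 and 819 in WT (-0.06, interval -0.27 to 0.15). These intervals include the median of the core and regulator genes, so a like shift was not excluded for them. Among the chaperones of the core, Psmg4 had 130 and 93.4 in OPNKO and 147 and 167 in WT (-0.50, interval -1.05 to 0.04, limma adjusted p = 0.270). It rests on 75 to 171 reads per library. Psmg2 had 439 and 495 in OPNKO and 451 and 472 in WT, with overlapping groups (0.02, limma adjusted p = 0.956; -0.02 with upper-quartile scaling). Psmg1 had -0.21 (limma adjusted p = 0.457) and Psmg3, at 66 to 89 reads per library, -0.13 (limma adjusted p = 0.816; 0.03 without OPNKO replicate 1). The signs for Psmd5 (0.07 without OPNKO replicate 1), Psmd10 (0.05 without it) and Psmg2 (-0.07 without OPNKO replicate 2) also turned with 1 library left out.

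The remaining 3 members are not parts of the general proteasome. Psma8, the germ-cell alpha subunit, had 94.7 and 137 in OPNKO and 113 and 119 in WT, and the OPNKO libraries lay on either side of the WT ones (-0.03, limma adjusted p = 0.967; 0.24 without OPNKO replicate 1). Psmb11, the catalytic subunit of the thymic proteasome and a neighbour of Psmb5, had 1 and 4 reads in the OPNKO libraries and 0 in both WT libraries. A count of 0 over the group allows up to 3 reads, and no fold change is given for so few. Psmc3ip had 82.2 and 69.7 in OPNKO and 93.2 and 75.1 in WT, with overlapping groups (-0.14, limma adjusted p = 0.798; 0.01 without WT replicate 1); part of its exons (21.2%) is shared with Mlx on the opposite strand, and the sources used here do not say whether counting used strand.

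**Figure D3:**
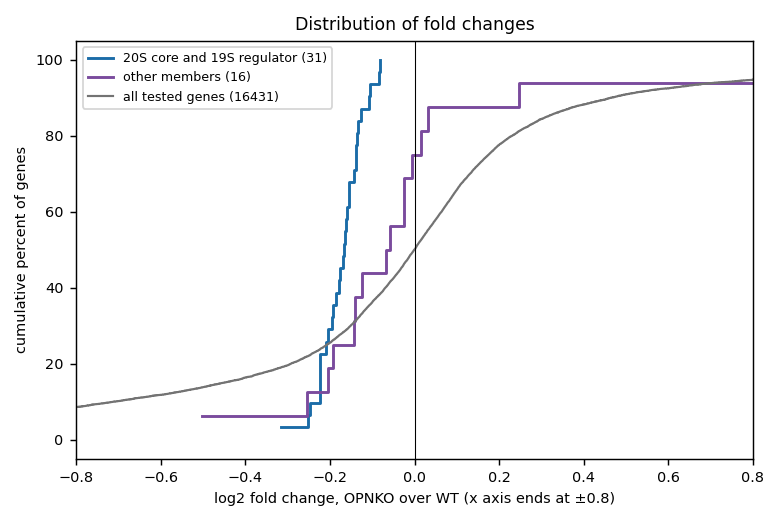
Cumulative percent of genes (y axis) against log2 fold change of OPNKO over WT (x axis, ending at ±0.8) for the 31 core and regulator genes, the other 16 members and all 16431 tested genes. The core and regulator curve rises within the range from -0.32 to -0.08, left of 0, and the curve of all genes crosses 0 near its middle.

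Levels were compared between genes as the normalized value per kb of annotated exon (GENCODE M21), which assumes that the authors' gene models have similar lengths. The length is that of all annotated exons of a gene combined, which can exceed the length of the transcript present. Core genes spanned a 7.49-fold range and regulator genes a 4.61-fold range in OPNKO. In the core, levels per kb averaged from 558 (Psma3) to 4177 (Psma6) in OPNKO, and these genes had 614 and 4879 per kb in WT. The median core level was 1053 per kb in OPNKO and 1217 per kb in WT. In the regulator the levels ran from 578 (Psmd11) to 2663 (Psmd2) per kb in OPNKO, where WT had 623 and 2938 per kb, and the medians were 1218 per kb in OPNKO and 1337 per kb in WT. Per kb, assembly factors had lower levels. The 4 core chaperones had a median of 223 per kb in OPNKO and 273 per kb in WT, and the 3 regulator chaperones had 175 per kb in both. The latter rests on long exon lengths, 7.23 kb for Psmd5 and 7.25 kb for Psmd9. Before division by length, Psmd5 averaged 1262 in OPNKO, above the core gene Psmb5 at 851, which has 0.899 kb. Psmd10, at 815 per kb in OPNKO and 829 per kb in WT, was the exception among the assembly factors. Psmf1 stood at 126 per kb in OPNKO and 124 per kb in WT.

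**Figure D4:**
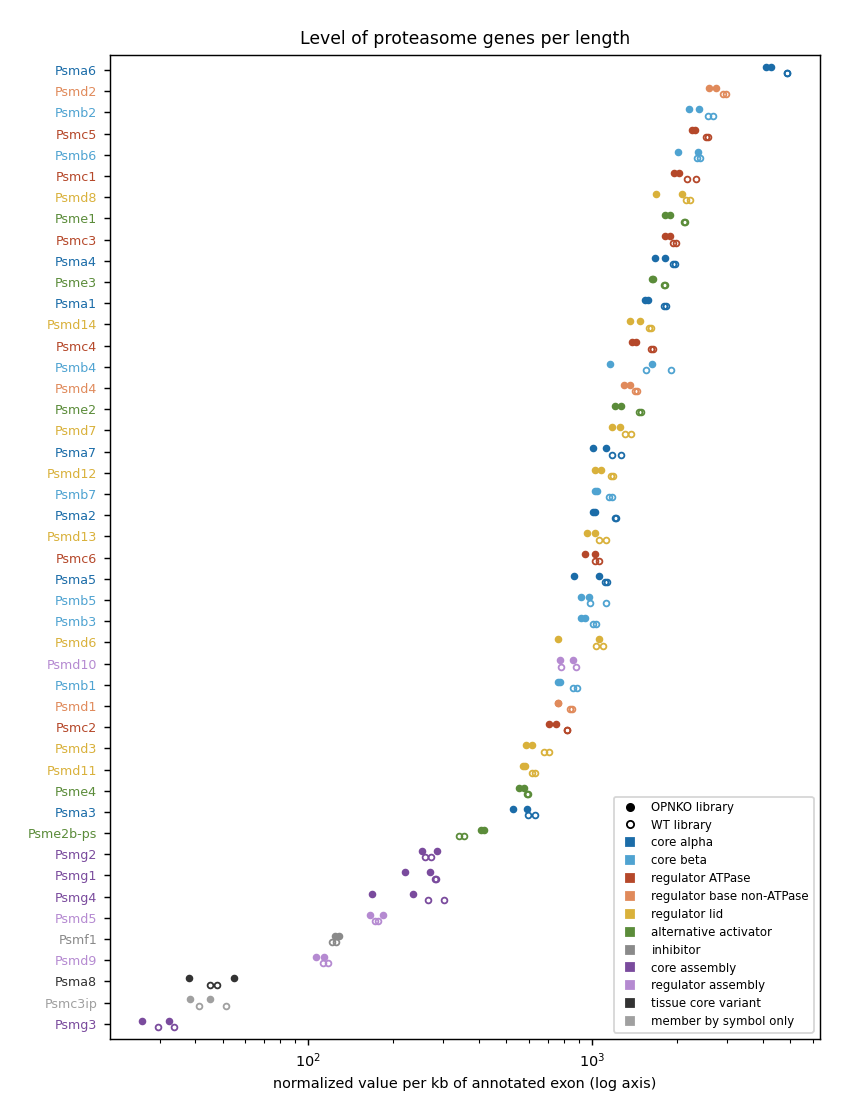
Normalized value per kb of annotated exon (log axis) of each proteasome gene in each library, OPNKO filled and WT open, coloured by class and sorted by the OPNKO mean. Core and regulator genes lie between about the level of Psma3, 558 per kb in OPNKO, and that of Psma6, 4177 per kb, with most open points to the right of the filled ones, and most assembly factors lie lower.

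Each standard catalytic subunit has an interferon-induced counterpart that replaces it in the ring: Psmb9 for Psmb6, Psmb10 for Psmb7 and Psmb8 for Psmb5. These 3 genes, which are not members, were also lower in both OPNKO libraries than in both WT libraries, with log2 fold changes of -0.22 (Psmb9), -0.28 (Psmb10) and -0.29 (Psmb8) and limma adjusted p of 0.158, 0.0711 and 0.157. Psmb8 had 3762 and 3068 in OPNKO and 4115 and 4172 in WT, and without OPNKO replicate 2 its log2 fold change was -0.14. Per kb, the level of Psmb8 was 1.14 and 0.993 times that of Psmb5 in OPNKO, against 1.08 and 1.25 times in WT. The level of Psmb10 was 1.11 and 1.2 times that of Psmb7 in OPNKO, against 1.25 times in both WT libraries. Psmb9 was below Psmb6, at 0.138 and 0.160 times its level in OPNKO and 0.154 and 0.163 times in WT. These ratios rest on unlike exon lengths. Psmb8 has 3.38 kb and Psmb5 0.899 kb, Psmb10 1.705 kb and Psmb7 3.42 kb, and Psmb9 3.66 kb and Psmb6 1.87 kb. How far the ratios reflect length was not tested, but the same lengths served both genotypes. The ratios of Psmb8 and Psmb9 overlapped between genotypes, and whether the inducible genes differed by more than the standard ones was not tested.

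Of the genes listed around the proteasome, 1 passed the test. Among 10 genes that control proteasome transcription, Ddi2 rose and 0 fell, beside 2.33% and 1.98% of all tested genes. Ddi2 encodes the protease that activates NRF1. It had 7306 and 7254 in OPNKO and 5975 and 5590 in WT, with both groups tight and far apart. The log2 fold change came to 0.33 ± 0.06 (standard error; limma adjusted p = 0.0344), and it also passed in the authors' deposited table (adjusted p = 0.0110). It did not pass with any 1 of the 4 libraries left out. The limma adjusted p was 0.101 and 0.0967 when OPNKO replicate 1 or 2 was left out, and 0.177 and 0.302 when WT replicate 1 or 2 was. Nfe2l1, which encodes NRF1 itself, had 13144 and 13636 in OPNKO and 11860 and 11375 in WT (0.20, limma adjusted p = 0.121). Sel1l, of the membrane complex from which NRF1 is released, had 0.21 (limma adjusted p = 0.119), and Nfe2l2, which encodes the related factor NRF2, had 0.21 (limma adjusted p = 0.122). The median of the 10 was 0.14, with 6 genes above and 1 below in both OPNKO libraries. All 10 had a mean value over 1000, where 36.5% of tested genes were above and 24.3% below and the median was 0.03.

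Of 11 other subunits, assembly and proteasome-bound factors listed, 10 were tested and 0 were called; Paaf1 was not analysed here. The median was -0.07, and 5 were below and 2 above in both OPNKO libraries, beside 25.0% and 27.7% of all tested genes. The gene with the smallest p was the F-box protein gene Fbxo7, a partner of PI31, at 929 and 936 in OPNKO and 782 and 832 in WT (0.21, limma adjusted p = 0.223), followed by the 19S ubiquitin receptor gene Adrm1 at 1838 and 1601 in OPNKO and 2001 and 1874 in WT (-0.17, limma adjusted p = 0.314). The core maturation factor gene Pomp had -0.08 (limma adjusted p = 0.489). Of 13 genes of ubiquitin shuttles and the p97 segregase, 0 were called. Zfand2a, whose product binds the proteasome under stress, had 0.24 (limma adjusted p = 0.0956). The segregase gene Vcp had -0.10 (limma adjusted p = 0.363). Of 6 ubiquitin and E1 genes, 0 were called. Rps27a, which encodes ubiquitin fused to a ribosomal protein, had -0.24 (limma adjusted p = 0.105). Irf1 and Nlrc5, regulators that act downstream of interferon-gamma, had -0.19 and -0.06 (limma adjusted p = 0.320 and 0.627). At an unadjusted p under 0.05, 1 proteasome-bound factor was higher and 0 lower, 2 shuttle genes were higher and 1 lower, 1 ubiquitin gene was higher and 1 lower, 4 genes of NRF1 and NRF2 control were higher and 0 lower, and 0 genes of the inducible list of 6 were higher and 3 lower. Over all tested genes 11.6% were higher and 9.54% lower at that level. A p that missed the threshold does not show that a gene was alike in the 2 genotypes.

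**Figure D5:**
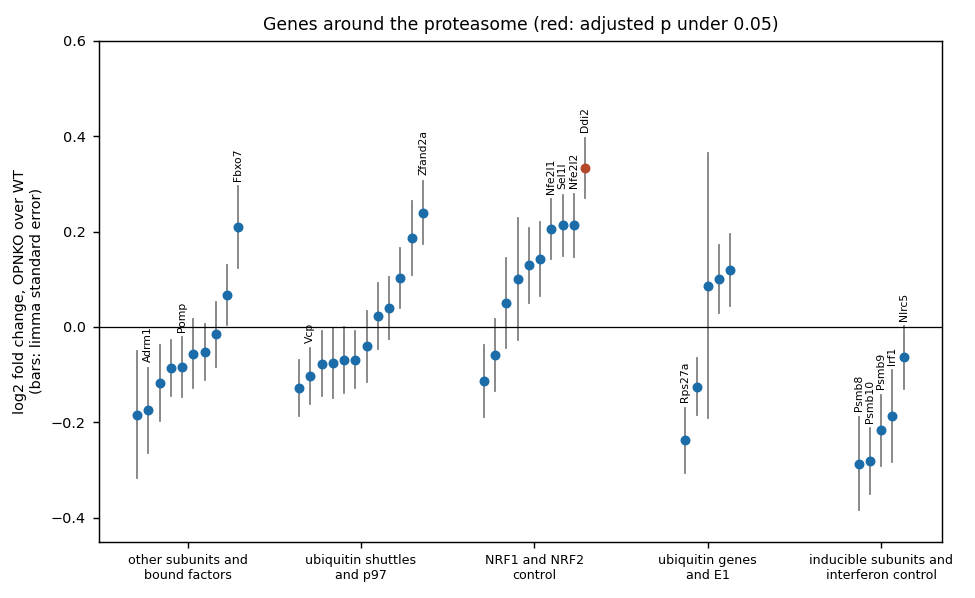
Log2 fold change of OPNKO over WT (points, with limma standard errors as bars) for genes of 5 lists around the proteasome, with names for the genes given in the text. Ddi2, at 0.33, is the 1 gene past an adjusted p of 0.05 (red), and 8 of the 10 genes of NRF1 and NRF2 control lie above 0.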

How the data were processed

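Flow-sorted alveolar macrophages were sequenced as 4 bulk libraries; per the labels, 10 stranded libraries were pooled on one lane. The submitters' processing notes name edgeR, HTSeq 0.6.1p1, STAR 2.4.1d and Trim Galore 0.4.0; roles, genome build, annotation and strand setting of the counting were not given in any source used here. The authors normalized the deposited expression signal of each library, per the file headers. Its steps show read counts scaled by one factor a library. The table also holds the authors' log2 fold change, its standard error and a Wald score, and a p-value with its FDR-corrected form, per the file headers. Whole reads were recovered for 100% of the values within a tolerance of 0.001 reads. Values in 2 unlabelled columns stayed out, and 1 row with a blank symbol was kept under its Ensembl identifier.

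The values were tested with limma 3.58.1 (trend, R 4.3.3) on log2(value + 1) without covariates, as OPNKO minus WT, after leaving out 324 genes with a mean value under 1. The added 1 shrinks the changes of low genes. P-values were adjusted by Benjamini-Hochberg and called under 0.05. With 2 libraries a genotype, the smallest two-sided p of an exact permutation test is 0.333. edgeR 4.0.16 and DESeq2 1.42.0 were run on recovered reads. The limma script was tested on simulated data. Spearman's correlation across genes was 0.992 between replicates of each genotype, and their counts differed by more than sampling noise (chi-square per degree of freedom 16.8 in OPNKO and 14.7 in WT).

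The members, classes and gene lists were chosen with earlier results of these data known, so they are described by counts and medians, with shares over all tested genes given for each kind of count. Values in every library are given for members past the threshold, for the highest and lowest fold change of each class, and for further members chosen after their values were seen (among them Psma1, Psmb5, Psmb7, Psmd2, Psmd8, Psma5 and Psme1); of each list, genes past the threshold or otherwise the 2 with the smallest p, with Pomp, Vcp, Nfe2l1, Nfe2l2, Sel1l, Irf1 and Nlrc5 added after their values were seen; some list genes are not reported here, though counts and medians of the lists include them. Exon lengths and gene positions came from GENCODE M21 (GRCm38) by Ensembl identifier, with 16542 matched and 213 not. Of the members, 7 share exon sequence with another gene of the table. Python 3.11.15, pandas 2.3.3, numpy 2.4.6 and matplotlib 3.10.9 were used.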

Additional observations from a re-analysis of the deposited data

How the results depend on the processing

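The count of genes past the threshold was 709. It was 1 with no filter on low values, 361 among genes of mean value 1000 or more, 1124 by DESeq2, 1464 and 161 at an adjusted p of 0.1 and 0.01, and 4 to 545 with 1 library left out (405 and 545 without an OPNKO library, 4 and 11 without a WT library). The limit of 1000 was chosen after seeing the data. The count of members called lower, 0, became 2 with upper-quartile factors (Psma2, Psma6), 1 by DESeq2, 4 at an adjusted p of 0.1, and 0 to 1 with 1 library left out (Psmd6, without OPNKO replicate 1). No member was called higher under any alternative run. The median of all members was -0.19 with upper-quartile factors, which moved the median of all genes to -0.04, and -0.17 to -0.13 with 1 library left out. The replicate numbers are shared by the groups, but deviations of same-numbered libraries did not correlate across genes (r = -0.02), so the numbers are not taken as pairs. With the replicate block 1566 genes and 3 members (Psma2, Psmb4, Psme2) passed, all lower, beside 4.21% of all tested genes that were lower in that fit. Of 726 fold changes of members under alternatives, 12 turned sign, all of 7 genes outside the core and regulator (Psma8, Psmc3ip, Psmd5, Psmd10, Psmf1, Psmg2, Psmg3); none of those 31 turned. Without a filter Ddi2 had a limma adjusted p of 0.124. Each genotype has 2 libraries, which limits every interval here.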
